A study of Danio rerio with 24 samples.

Results

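From 12 to 24 hours post-fertilization (hpf) the zebrafish embryo goes through segmentation, in which somites bud off one pair after another while the tail extends, muscle precursors leave the cell cycle and fuse, the ear, heart and blood islands take shape and the neural crest spreads. Many genes of this period only rise or only fall. The 100 genes described here did neither in embryos with vitamin E (VitE): their mean level was higher at 18 hpf than at 12 hpf and again lower at 24 hpf. They were chosen from the vitamin E sufficient (E+) pools only, as the 100 of 9581 genes with a mean of 5 CPM or more at 18 hpf (29109 genes with 1 or more reads, 32520 listed) whose mean stood farthest above both neighbouring ages, so that the vitamin E deficient (E–) pools, which the choice did not use, could be asked whether they share the peak. CPM is the number of reads of a gene per 1000000 gene reads of its pool, the pool totals being scaled by the trimmed mean of M-values. The size of a peak is the smaller of log2((m18 + 0.5)/(m12 + 0.5)) and log2((m18 + 0.5)/(m24 + 0.5)), m being the group mean CPM at each age.

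Embryos of the Tropical 5D strain came from group spawns of adults kept from 55 days post-fertilization on a VitE sufficient (E+) or VitE deficient (E–) diet for at least 80 days and up to 9 months. Each diet was sampled at 12, 18 and 24 hpf with 4 pools of 10 whole, morphologically normal embryos, 24 pools in all, and pools 1 and 2 of every group ran on lane 7 and pools 3 and 4 on lane 8. Diet was given to the parents, no embryo was treated, and separate spawns for each pool are not stated, so that the tests measure the spread between pools. RNA was read from its 3′ end. Each pool held 10537272 to 20973407 reads on genes (median 15436757.5), 25.1 to 39.2% of them on a single gene, and the members were read 1049 to 180874 times each over all pools (median 3639.5). Markers of muscle (MYOD1), notochord (tbxta), nervous system (SOX2, ELAVL3), blood (gata1a), heart (MYL7), epidermis (krt4, krt5), neural crest (SOX10), hatching gland (he1.1) and germ cells (DDX4) were all read in every group. MYL7 was low at 12 hpf, with means of 0.33 and 0.17 CPM (E+ and E–). Of 2 endoderm markers, SOX17 had group means of 0.57 and 0.42 CPM at 18 hpf (E+ and E–), and its 24 hpf means were 0.22 and 0.32 CPM. The other, foxa3, had means of 13.4 and 15.3 CPM at 18 hpf and of 10.0 and 9.06 CPM at 24 hpf. One E+ pool of 18 hpf, pool 2, stood apart: 13.2% of its reads were unmapped, against 9.09 to 9.26% in its group, and it was the highest of the 4 for 48 members. At 12 hpf the E+ pools 1 and 4 held more of the steepest members than pools 2 and 3. In whole embryos, fewer cells of a type and less RNA per cell cannot be told apart. Symbols in capitals are those the name table gives, and an identifier follows where several zebrafish genes share one.

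In the E– pools the peak was found in most members. The E– group mean was highest at 18 hpf in 90 of the 100 members, against 21.6% of the 19597 genes tested. In edgeR's quasi-likelihood test on the 12 E– pools alone, with a false discovery rate (FDR) under 0.1, 79 members were higher at 18 than at 12 hpf (21.7% of all genes tested) and 68 were higher at 18 than at 24 hpf (10.6%). Both calls were made for 56 members, against 1.2% of all genes (235 of 19597). A further 23 were higher than at 12 hpf only, 12 were higher than at 24 hpf only, and 9 were higher in neither comparison. When the 100 genes were chosen without E+ 18 hpf pool 2, 84 members stayed and again 56 of the 100 had both calls. In the other direction, 2 members (nfkbiaa and si:dkey-261m9.18) were lower at 18 than at 12 hpf, against 19.6% of all genes, and si:dkey-261m9.18 was lower than at 24 hpf, against 10.7%. The 12 hpf level of si:dkey-261m9.18 rested on E– pool 2, with 41.4 CPM against 0.938 to 2.19 CPM in the others. Without that pool the larger edgeR FDR of its 2 comparisons was 0.958. All 4 E– pools of 18 hpf lay above all 8 E– pools of the other ages for 49 members, against 1.26% of all genes.

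The log2 fold change (log2FC) of 18 over 12 hpf in E– pools had a median of 0.95 over the members (quartiles 0.57 and 1.92) and of 0.02 over all genes tested. For 18 over 24 hpf the medians were 0.69 and 0.00. In both diets most members climbed farther than they came down: the fall to 24 hpf was the smaller side of the peak for 78 members in E+ and for 70 in E– pools. The E+ count comes from the values that chose the members. Over all genes tested, too, the upper quartile of the E– log2FC was larger over 12 hpf (0.51) than over 24 hpf (0.27). The peak held on both sequencing lanes, with the E– mean highest at 18 hpf in 91 members on lane 7 and 90 on lane 8.

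**Figure D1:**
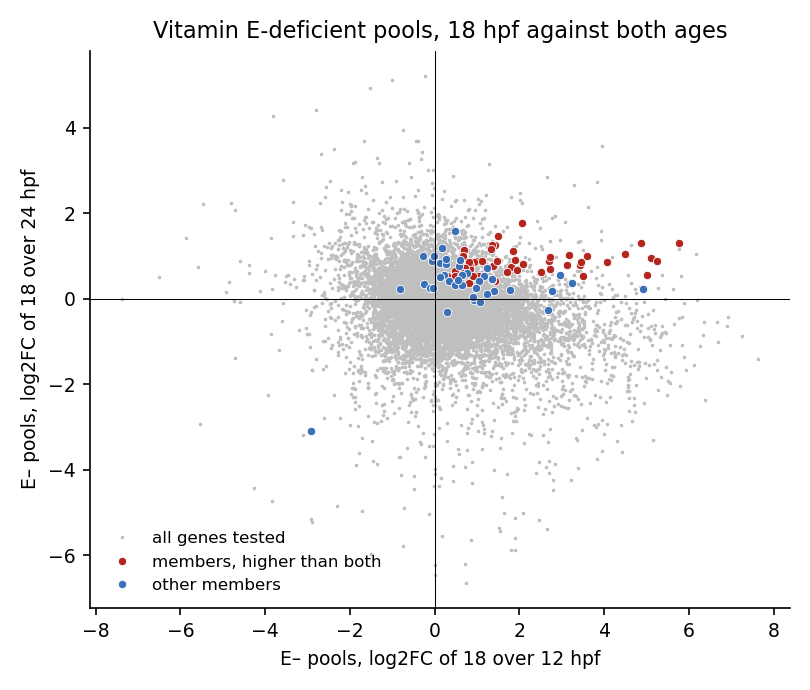
Each point is a gene in the 12 E– pools, with the log2FC of 18 over 12 hpf on the horizontal and of 18 over 24 hpf on the vertical axis (19597 genes in grey, 100 members in colour). Of the members, 56 were higher at 18 hpf than at both other ages by the edgeR test, and si:dkey-261m9.18 lies alone at the lower left with -2.92 and -3.10. Its 12 hpf level rests on E– pool 2, with 41.4 CPM against 0.938 to 2.19 CPM in the others.

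The peak was smaller in E– than in E+ pools for 87 members. Its median was 0.75 in E+ pools (range 0.59 to 1.60), which is what the choice fixed, and 0.53 in E– pools (range -2.74 to 1.48), where all 9628 genes with 5 CPM or more at 18 hpf had a median of -0.21. It was 0.5 or more in 57 members in E– pools, against 1.08% of those genes. Choosing genes for their height in the E+ pools of 18 hpf by itself favours a lower E– value at that age, and nothing is read from the direction of that gap. When the 100 genes were chosen from the E– means instead, the order of the diets turned: the median peak was 0.68 in E– and 0.61 in E+ pools. Both sets shared 50 genes, and the E+ mean was highest at 18 hpf in 95 of the second set.

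**Figure D2:**
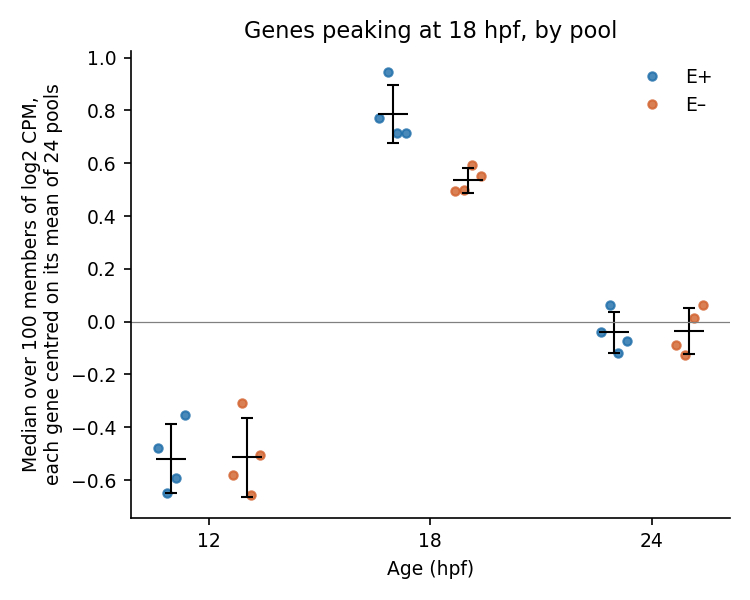
Each point is a pool, with the median over the 100 members of log2 CPM (each gene centred on its mean of 24 pools) on the vertical and age on the horizontal axis; black bars are the mean ± SD of 4 pools. The E+ pools of 18 hpf lie at 0.72 to 0.95 and the E– pools at 0.49 to 0.59, while the diets overlap at 12 hpf (-0.66 to -0.31) and at 24 hpf (-0.13 to 0.06). The E+ values also chose the members, which by itself favours a lower E– value at 18 hpf, so that the gap is a description.

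**Figure D3:**
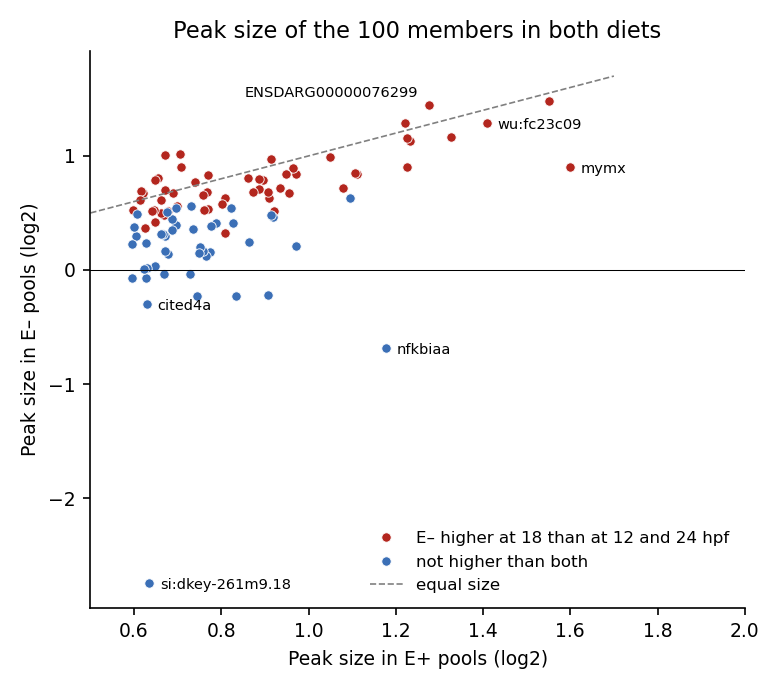
Each point is a member, with the peak size (log2) in E+ pools on the horizontal and in E– pools on the vertical axis; the broken line marks equal size. Of the 100 members, 87 lie below the line and 10 lie below 0, nfkbiaa and si:dkey-261m9.18 farthest down. The E+ values chose the members, so that the number below the line is a description.

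Among the 100 members 8 were muscle genes. Fast muscle fibres of the zebrafish form when myoblasts adhere and fuse, a step that needs the membrane proteins Myomaker and Myomixer and the adhesion molecule Jam2a. mymx, which encodes Myomixer, had the largest E+ peak. Its E+ pools held 2.81, 0.816, 0.472 and 2.05 CPM at 12 hpf, 19.7, 14.0, 16.6 and 15.4 CPM at 18 hpf, then 4.85, 6.50, 4.1 and 4.89 CPM at 24 hpf. Its E– pools held 0.188, 0.573, 0.411 and 0.288 CPM, then 12.4, 14.6, 11 and 14.6 CPM, then 7.38, 5.72, 7.45 and 6.67 CPM. All E– pools of 18 hpf lay above those of the other ages, which held for 1.26% of all genes tested. In E– pools mymx was higher at 18 than at 12 hpf by a log2FC of 5.12 ± 0.27 (approximate SE from the F statistic, edgeR FDR = 1.35e-14). It was higher than at 24 hpf by 0.95 ± 0.19 (edgeR FDR = 0.000861).

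jam2a followed the same course. It went from 2.94, 1.91, 3.84 and 3.91 CPM in the E– pools of 12 hpf to 36.5, 24.4, 28.4 and 27.9 CPM at 18 hpf, then 11.8, 13.3, 15.7 and 17.0 CPM at 24 hpf (log2FC of 18 over 24 hpf 1.02 ± 0.17, edgeR FDR = 7.96e-05). The E+ pools of 18 hpf, at 30.8, 30.3, 31.4 and 27.2 CPM, lay within the E– range. MYOG, the myogenic factor of differentiating myocytes, stood at 13.9, 8.57, 12.0 and 12.3 CPM in the E– pools of 18 hpf and at 5.51 to 7.41 CPM at 24 hpf (log2FC 0.85 ± 0.22, edgeR FDR = 0.00754).

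RBM24 (ENSDARG00000102995), an RNA-binding protein of muscle and heart, had the most even course of the muscle members. Its E– pools held 136 to 153 CPM at 12 hpf, 374, 365, 386 and 329 CPM at 18 hpf and 145 to 179 CPM at 24 hpf, and the E+ pools of 18 hpf held 388, 415, 397 and 407 CPM. xirp1 (ENSDARG00000030722), whose product binds actin at muscle attachments, was called too (log2FC 0.94 ± 0.13 over 12 hpf and 0.85 ± 0.14 over 24 hpf, edgeR FDR = 2.68e-06 and 4.46e-05). Of the 8 muscle members, all were higher at 18 than at 12 hpf in E– pools and 5 were also higher than at 24 hpf. Of all 100 members 79 were higher than at 12 hpf and 56 than at both ages, against 21.7% and 1.2% of all genes. The role groups, here and below, were formed after values were seen. FLNC (ENSDARG00000018820) and FILIP1 (ENSDARG00000079634), both linked to actin filaments, were higher than at 12 hpf only.

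Other muscle genes followed several courses. Of 24 tested genes on a muscle list, 6 were higher at 18 hpf than at both ages in E– pools, against 1.2% of all genes. They were the members mymx, jam2a and MYOG, and outside the 100 MYOD1, MEF2D and MYMK, which encodes Myomaker. The members were chosen for their E+ peak, so the share of the list is partly fixed by that choice. Of the list, 14 were lower at 18 than at 24 hpf, against 10.7% of all genes. Those 14 include actc1b, an actin of the fibre, with E– means of 34.5, 852 and 3119 CPM at 12, 18 and 24 hpf, and the fast myosin gene myhz1.1 with 3.10, 45.0 and 600.3 CPM. MYF5, the early myogenic factor, fell throughout, from 42.4 CPM at 12 hpf to 4.16 CPM at 24 hpf.

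Among the 5 Hox members, which pattern the posterior body, 4 were called in both comparisons. Over all members it was 56 of 100, and over all genes 1.2%. HOXA11 (ENSDARG00000104162), ranked second in E+ pools, held 0.875, 1.72, 1.03 and 0.920 CPM in the E– pools of 12 hpf, 5.13, 4.38, 4.99 and 5.11 CPM at 18 hpf and 0.967, 0.565, 2.29 and 1.95 CPM in the last group, with no overlap between 18 hpf and the others. The log2FC was 2.07 ± 0.35 over 12 hpf and 1.78 ± 0.35 over 24 hpf (edgeR FDR = 2.52e-05 and 0.00056). The other gene listed as HOXA11 (ENSDARG00000007009) was called as well, with 76.9, 84.1, 78.2 and 78.6 CPM in the E– pools of 18 hpf against 16.3 to 32.5 CPM at 12 hpf and 45.8 to 56.7 CPM at 24 hpf. HOXD12 rose from 1.5, 1.78, 3.15 and 2.47 CPM to 16.1, 12.6, 16.2 and 14.3 CPM and came back to 7.91, 6.71, 7.03 and 10.6 CPM in E– pools. HOXD10 peaked as well (edgeR FDR = 2.87e-05 over 12 hpf and 0.000433 over 24 hpf). HOXD11, with 2.54, 3.10, 5.72 and 4.67 CPM at 18 hpf, then 1.49, 3.74, 1.1 and 3.34 CPM at 24 hpf, passed against 12 hpf but not against 24 hpf (edgeR FDR = 0.235).

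Over the tested genes of Hox groups 9 to 13, 7 of 22 (31.8%) peaked in E– pools, against 1.2% of all genes. The list was drawn up after the 5 Hox members were seen and holds them, and they gave 4 of the 7 calls. The share is thus partly fixed by the choice of members. Besides the 4 members the genes called were HOXC10, HOXC11 and hoxc11b. Among the others, HOXD9 fell from 12 hpf on, with E– means of 30.5, 19.3 and 14.0 CPM at 12, 18 and 24 hpf. At the other end HOXB13 was still climbing, with 0.102, 0.457 and 4.78 CPM.

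**Figure D4:**
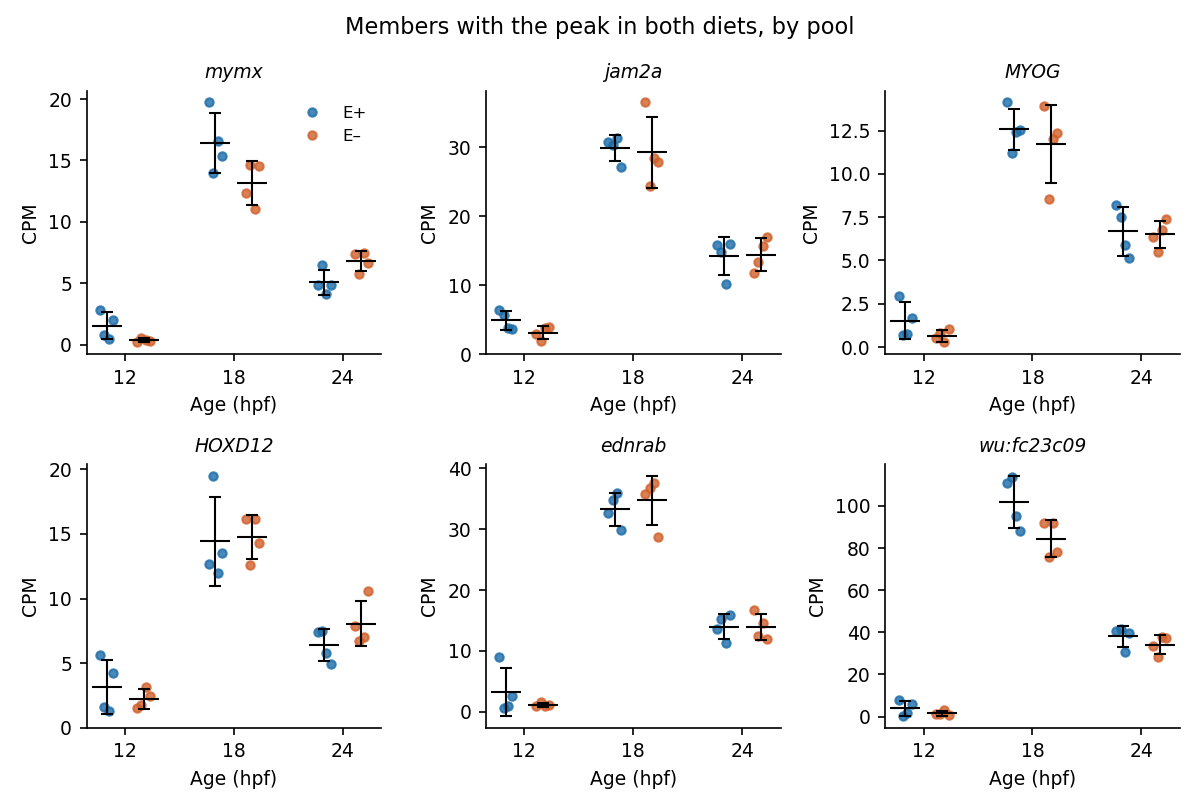
CPM in every pool by age for mymx, jam2a, MYOG, HOXD12, ednrab and wu:fc23c09; points are pools (E+ blue, E– orange) and black bars the mean ± SD of 4 pools. In all 6 genes the E– pools of 18 hpf lie above every E– pool of 12 and 24 hpf.

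Of the 9 members that encode ligands, receptors or guidance molecules, 4 peaked in E– pools. Of all 100 members 56 did, and of all genes 1.2%. ednrab, an endothelin receptor used by neural crest derivatives in zebrafish, held 0.875, 1.59, 0.960 and 1.15 CPM in the E– pools of 12 hpf, 35.8, 36.8, 37.6 and 28.8 CPM at 18 hpf, then 16.7, 12.5, 14.6 and 12.0 CPM at 24 hpf (log2FC 4.88 ± 0.19 and 1.32 ± 0.15, edgeR FDR = 2.35e-17 and 1.79e-07). The E+ pools of 18 hpf held 32.7, 34.8, 36.0 and 29.9 CPM. PTPRE (ENSDARG00000021151), a receptor tyrosine phosphatase, reached 9.66, 10.5, 10.4 and 7.42 CPM from 2.54 to 4.27 CPM and returned to 3.25 to 5.19 CPM. The growth factor gene pdgfbb and the sphingosine phosphate receptor gene s1pr5a were the others called. WNT6, a secreted ligand, was at 7.67, 11.9, 5.86 and 5.98 CPM at 18 hpf and at 8.0, 8.19, 9.91 and 6.86 CPM at 24 hpf in E– pools, and RXFP1, a relaxin receptor, was not called against either age.

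Outside the Hox genes, 5 of 11 transcription regulators peaked in E– pools, against 56 of all 100 members and 1.2% of all genes. TFEC, of the family of the pigment cell regulator Mitf, held 7.85, 7.15, 6.19 and 8.73 CPM in the E– pools of 18 hpf against 0.115 to 1.44 CPM before and 2.05 to 5.10 CPM after (log2FC over 24 hpf 0.99 ± 0.34, edgeR FDR = 0.0424). That call was lost without E– 18 hpf pool 4 (edgeR FDR = 0.113), E– 24 hpf pool 2 (edgeR FDR = 0.146) or E– 24 hpf pool 3 (edgeR FDR = 0.112). mafbb, a bZIP factor, went from 6.31 to 7.77 CPM to 47.3, 41.3, 44.2 and 53.4 CPM and back to 20.9 to 26 CPM, with no overlap between ages. SPI1, the myeloid factor PU.1, held 4.95, 6.75, 5.72 and 8.10 CPM at 18 hpf and 2.99 to 4.1 CPM at 24 hpf in E– pools (log2FC 0.88 ± 0.26, edgeR FDR = 0.0222), a call lost when all 24 pools were fitted together (edgeR FDR = 0.161). The retinoic acid receptor gene RARG (ENSDARG00000054003) and the Notch target HEY1 were called, while the clock gene bmal2 was higher than at 24 hpf only.

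Of 11 members for the extracellular matrix and its assembly, 8 were called in both comparisons in E– pools. Of all 100 members 56 were called, and of all genes 1.2%. SERPINH1 (ENSDARG00000019949), the chaperone of collagen in the endoplasmic reticulum, stood at 272 to 395 CPM in the E– pools of 12 hpf, at 660, 499, 582 and 495 CPM at 18 hpf and at 224 to 299.6 CPM at 24 hpf (log2FC 0.69 ± 0.11 and 1.13 ± 0.11, edgeR FDR = 1.96e-05 and 3.06e-08). The E+ pools of 18 hpf held 685, 849, 622 and 678 CPM. The collagen V chain gene col5a3a went from 4.80 to 11.5 CPM to 80.8, 93.5, 78.7 and 91.7 CPM and back to 44.8 to 56.7 CPM in E– pools. EFEMP2 (ENSDARG00000094324) and FBLN1, both fibulins, and PCOLCE2 (ENSDARG00000055575), an enhancer of procollagen processing, were called as well. The peak of col8a1a, a collagen of the notochord sheath, was not: its E+ pools of 18 hpf held 10.7, 20.4, 14.4 and 8.43 CPM and its E– pools 8.81, 9.31, 9.05 and 3.99 CPM, against 3.88 to 12.8 CPM in the E– pools of 24 hpf (edgeR FDR = 0.943).

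Of 7 members of epithelia, transport and the ear, 5 were called, against 56 of all 100 members and 1.2% of all genes. oc90, which encodes a core protein of the otolith, was at 110, 86.6, 100.4 and 100.4 CPM in the E– pools of 18 hpf, above the 20.8 to 32.7 CPM of 12 hpf and the 49.0 to 56.3 CPM of 24 hpf. SLC38A8 (ENSDARG00000054196), an amino acid transporter, was hardly read at 12 hpf in E– pools (0.206 to 0.345 CPM), reached 9.90, 9.51, 14.7 and 11.4 CPM and fell to 5.08 to 6.77 CPM. The claudin gene CLDN5 (ENSDARG00000043716) passed in both comparisons, as did CA8, a carbonic anhydrase relative, although the latter call was lost without E– 18 hpf pool 2 (edgeR FDR = 0.175) or 3 (edgeR FDR = 0.131) and without E– 24 hpf pool 2 (edgeR FDR = 0.2) or 3 (edgeR FDR = 0.104).

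Smaller groups were mixed. Of 7 members of the cytoskeleton and of adhesion, 5 were called, of 9 members of metabolism 5, of 4 members of chromatin and RNA 2, of 3 cytosolic chaperones 2, and of 3 members of inflammation 1, the complement factor gene cfd. Over all 100 members 56 were called, and over all genes 1.2%. apeh, an acylpeptide hydrolase, peaked at 7.48, 5.80, 8.92 and 8.41 CPM in E– pools (1.71 to 4.71 CPM before, 2.68 to 3.61 CPM after). rsrp1, named for its arginine and serine repeats, was at 106, 91.1, 94.6 and 91.3 CPM against 41.2 to 57.7 CPM before and 53.3 to 75.5 CPM after. The histone gene h2bc1 did not stand above 12 hpf in E– pools (log2FC 0.18 ± 0.17, edgeR FDR = 0.438). Its E+ pool 2 of 18 hpf stood at 54.8 CPM, the others at 24.7 to 29.2 CPM.

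The largest log2FC of 18 over 12 hpf among the 100 members in E– pools belonged to wu:fc23c09, whose role is not known from its name. It stood at 1.19, 1.34, 3.02 and 0.633 CPM in the E– pools of 12 hpf, at 91.7, 75.6, 92.1 and 78.3 CPM at 18 hpf and at 33.3, 28.3, 37.7 and 37.5 CPM at 24 hpf (log2FC 5.77 ± 0.22 and 1.3 ± 0.16, edgeR FDR = 1.87e-17 and 1.34e-06). Its E+ pools of 18 hpf held 111, 114, 95.2 and 88.0 CPM. Of 23 members outside the groups above, 10 were called, among them the unnamed ENSDARG00000076299 (34.8, 40.6, 42.9 and 37.1 CPM at 18 hpf) and ENSDARG00000117538 (124, 106, 120 and 141 CPM). Of all 100 members 56 were called, and of all genes 1.2%. tanc1a and bif1.1 missed 1 of the 2 calls each, tanc1a against 24 hpf (edgeR FDR = 0.106) and bif1.1 against 12 hpf (edgeR FDR = 0.184). At the margin of the choice the E+ peaks were nearly equal, 0.60, 0.60 and 0.59 for CLDN5, WNT6 and MAFA inside and 0.59, 0.59 and 0.59 for LY75, TBX18 and MYOD1 outside.

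On the other lists of genes of this period both calls in E– pools were set against the 1.2% of all genes. They were made for 3 of 20 tested genes of blood and vessels (15%) and 2 of 19 of ear and lens (10.5%). Among these, SPI1, CLDN5 (ENSDARG00000043716) and oc90 were members, while EGFL7 and TBX2 were not. The members were chosen for their E+ peak, so the shares of both lists are partly fixed by that choice. Both calls were also made for 1 of 20 of neural crest and pigment (5%), 1 of 21 of segmentation (4.76%) and 2 of 48 of motile cilia (4.17%). No gene had both calls among 30 early neuronal genes, 20 of the notochord, 7 of the hatching gland, 13 of the kidney, 27 of stress and immediate early response, 27 of the clock or 19 of the cell cycle. Over these 7 lists (143 entries, lhx1a being on both the neuronal and the kidney list) the count was again 0 at unadjusted p under 0.05 in edgeR and 0 in DESeq2. Most of the neuronal genes were still climbing, 21 being higher at 18 than at 12 hpf (21.7% of all genes) and 20 lower than at 24 hpf (10.7%). Of the segmentation genes, 15 were lower at 18 than at 12 hpf, against 19.6% of all genes.

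In 10 members the E– peak was below 0, so that the E– mean was not highest at 18 hpf. Of these, 6 had a higher E– mean at 12 than at 18 hpf and 5 had a higher one at 24 than at 18 hpf. nfkbiaa encodes the inhibitor that holds NF-κB in the cytoplasm. In E+ pools it went from 2.07, 2.99, 2.17 and 2.98 CPM at 12 hpf to 4.81, 8.43, 3.80 and 8.57 CPM at 18 hpf, then 1.16, 1.94, 1.67 and 1.28 CPM at 24 hpf. In E– pools it went from 4.69, 3.69, 6.03 and 2.99 CPM to 2.72, 1.48, 2.99 and 2.87 CPM and 2.02, 1.84, 2.46 and 2.22 CPM, so that the E– level was lower at 18 than at 12 hpf (log2FC -0.82 ± 0.28, edgeR FDR = 0.0246). At 18 hpf no E– pool reached the lowest E+ pool, and E– was lower by a log2FC of -1.36 (edgeR FDR = 0.0276). The E+ values of 18 hpf also chose the gene, so that this gap is a description. The call was lost without E+ 18 hpf pool 2 (edgeR FDR = 0.223).

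Of the others below 0, 3 were called against neither age in E– pools, 2 kept the fall and 3 the rise. cited4a, a transcriptional co-regulator, held 82.0, 115, 67.0 and 81.6 CPM in the E– pools of 24 hpf and 64.6, 58.2, 78.2 and 79.0 CPM at 18 hpf, where the E+ pools went down from 72.0 to 106 CPM at 18 hpf to 51.0 to 60.7 CPM at 24 hpf. DCXR, a sugar reductase, kept one side of the peak: its E– pools were at 28.0 to 35.4 CPM at 12 hpf, 26.1 to 31.4 CPM at 18 hpf and 13.6 to 17.5 CPM at 24 hpf. si:dkey-108k21.13 likewise fell after 18 hpf only (edgeR FDR = 0.00452), and zgc:194930 and WNT6 rose from 12 hpf only. RXFP1 and ENSDARG00000113858 were called against neither age.

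si:dkey-261m9.18 varied most from pool to pool. It held 1.34, 88.4, 48.3 and 50 CPM in the E+ pools of 18 hpf and 1.99, 0.944, 1.80 and 1.43 CPM in the E– pools. Within groups it moved as widely, with 1.96, 2.88, 60.3 and 23.7 CPM in the E+ pools of 12 hpf, 0.938, 41.4, 2.19 and 1.61 CPM in the E– pools of 12 hpf and 0.439, 27.2, 14.0 and 10.9 CPM in the E– pools of 24 hpf. Pools of 1 group were thus far apart at every age in at least 1 diet.

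Between the diets, 9 members differed over the 3 ages jointly (edgeR FDR under 0.1 on all 24 pools), against 0.995% of all genes tested. The E+ values that chose the members enter this test and those below at single ages and of diet by age. Their counts and directions are thus a description. At 18 hpf alone 3 members were lower in E– (0.133% of all genes) and 0 higher (0.24%). At unadjusted p under 0.05 in edgeR 21 were lower and 1 higher, and in DESeq2 4 were lower and 0 higher. At unadjusted p under 0.05 over the 3 ages, 33 members passed against 11.5% of all genes. At 12 hpf 3 were lower (0.434%) and 2 higher (0.332%), with 18 lower and 10 higher at unadjusted p under 0.05 in edgeR. DESeq2 called 8 lower and 2 higher at that age. At 24 hpf 0 members passed in edgeR (0% of all genes in either direction), with 2 higher and 2 lower at unadjusted p under 0.05, and DESeq2 called 1 higher and 0 lower. For the single ages, shares over all genes at unadjusted p and in DESeq2 are not given here. Nothing is read from those counts. Whether the diet difference itself changed with age was called for 0 of the 100 members and 0 of all genes in edgeR. At unadjusted p under 0.05 in edgeR it was 23 members against 6.61% of all genes. Choosing genes for a large E+ peak by itself favours such an excess, and nothing is read from it. DESeq2 called 4 members, and its share over all genes is not given here.

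The 3 genes lower at 18 hpf were nfkbiaa, si:dkey-261m9.18 and ZYX, which encodes zyxin of focal adhesions. ZYX was even within groups: 38.8, 38.6, 38.0 and 35.1 CPM in E+ and 21.7, 19.4, 22.9 and 26.1 CPM in E– pools of 18 hpf, with no overlap (log2FC -0.75, edgeR FDR = 0.0153). Its E– pools of 12 hpf held 13.8 to 20.9 CPM against 20.5 to 25.8 CPM in E+ pools, and those of 24 hpf 11 to 20.3 CPM against 18.4 to 22.9 CPM. All 3 calls at 18 hpf were lost without E+ 18 hpf pool 2, with an edgeR FDR of 0.223 for nfkbiaa, 0.109 for ZYX and 0.199 for si:dkey-261m9.18. Without E– 18 hpf pool 2 or 4 nfkbiaa was lost (edgeR FDR = 0.106 and 0.116), and without any one of the 4 E– pools of 18 hpf si:dkey-261m9.18 was lost (edgeR FDR = 0.107 to 0.162). Over the 3 ages together nfkbiaa and ZYX were called with each of the 24 pools left out in turn (highest edgeR FDR 0.0646 and 0.0408).

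mymx and MAFA, a bZIP factor, were lower in E– pools at 12 hpf, before the peak (log2FC -2.05 and -1.84, edgeR FDR = 0.0151 and 0.0146). MAFA held 8.80, 1.52, 1.75 and 4.28 CPM in E+ and 1.00, 1.66, 1.51 and 0.460 CPM in E– pools of 12 hpf, and at 18 hpf 39.5 to 42.0 CPM in E+ and 31.0 to 37.9 CPM in E– pools. In both genes the E+ pools 1 and 4 were the high ones. The same held across the steepest members: of the 23 members whose E+ mean rose by 2 or more on the log2 scale from 12 to 18 hpf, 21 were higher in E+ pool 1 and 19 in E+ pool 4 than in both other E+ pools of 12 hpf, and the median of the 23 was 3.08, 0.816, 1.42 and 2.54 CPM in the E+ and 1.00, 1.59, 1.44 and 1.04 CPM in the E– pools. In the E– pools of 12 hpf 5, 12, 7 and 10 of the 23 were above both E+ pools 2 and 3. The share over all genes is not given here. Without E+ pools 1 and 4 of 12 hpf the diet calls over the 3 ages were lost for mymx (edgeR FDR = 0.229), MAFA (edgeR FDR = 0.393) and si:dkeyp-19e1.3 (edgeR FDR = 0.155). The part of these pools in the calls was not tested.

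Among the remaining members that differed, mt-atp8, a mitochondrially encoded subunit of ATP synthase, held 48.8, 85.2, 40.4 and 31.2 CPM in E+ and 29.2, 35.1, 31.5 and 22.4 CPM in E– pools of 18 hpf, and 26.8 to 46.1 CPM against 13.2 to 21.8 CPM at 24 hpf (edgeR FDR over the ages = 0.062). With each of the 24 pools left out in turn, this call was lost in 7 of the 24 fits and that of cited4a (edgeR FDR = 0.0509) in 4. The highest edgeR FDR was 0.132 without E– 18 hpf pool 4 for mt-atp8 and 0.166 without E+ 24 hpf pool 3 for cited4a. The calls of si:dkeyp-19e1.3 and zgc:173585 (edgeR FDR = 0.0974 and 0.098) were lost in 21 and 15 of these 24 fits. ENSDARG00000113858 and DCXR were the 2 members higher in E– pools at 12 hpf (log2FC 1.1 and 0.61, edgeR FDR = 0.0773 and 0.0503), with 21.6, 13.7, 20.4 and 10.6 CPM against 3.66, 11.5, 3.16 and 12.7 CPM in the former.

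**Figure D5:**
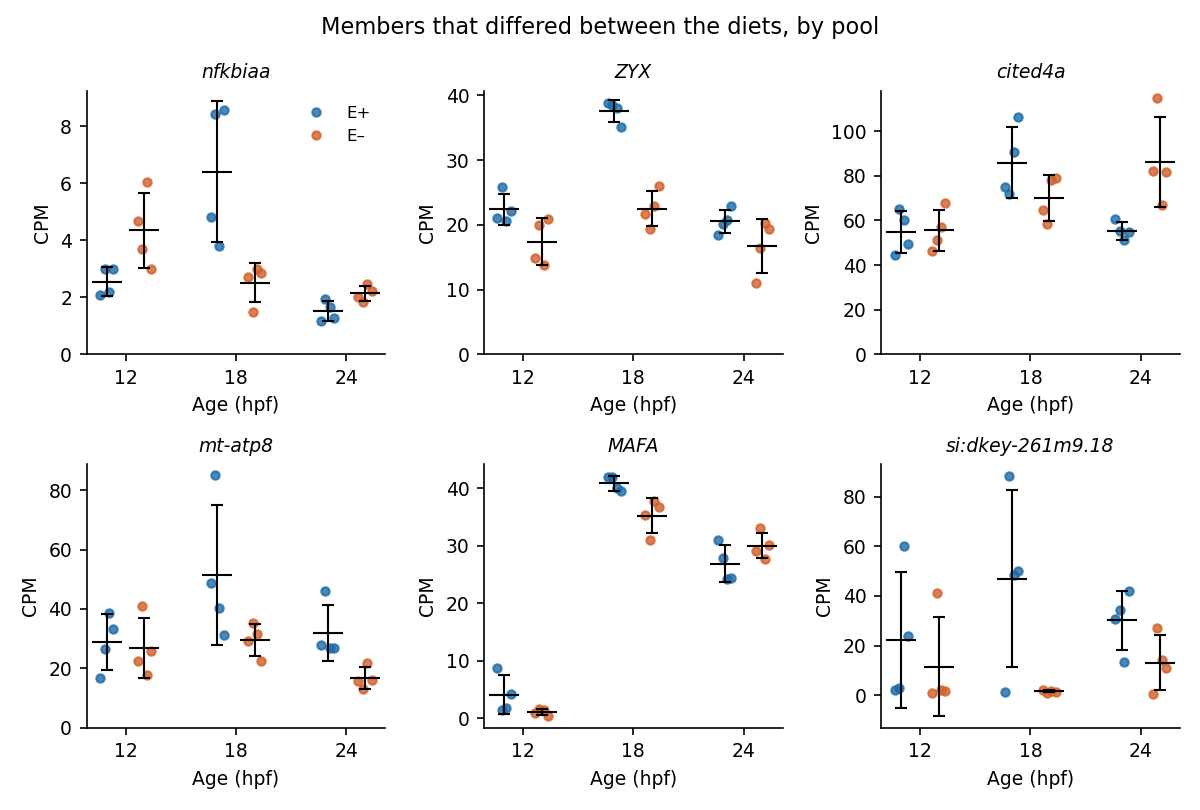
CPM in every pool by age for nfkbiaa, ZYX, cited4a, mt-atp8, MAFA and si:dkey-261m9.18; points are pools (E+ blue, E– orange) and black bars the mean ± SD of 4 pools. At 18 hpf the diets do not overlap for nfkbiaa (3.80 to 8.57 against 1.48 to 2.99 CPM) or ZYX (35.1 to 38.8 against 19.4 to 26.1 CPM), and si:dkey-261m9.18 varies from pool to pool within groups. The E+ values also chose these genes, so that the gaps are a description.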

How the data were processed

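The authors prepared 3′ mRNA libraries (Lexogen QuantSeq FWD), trimmed adapters and poly(A), checked reads with FastQC 0.11.5 and aligned them to GRCz11 with STAR 2.7.3a. They deposited raw counts, whole reads per Ensembl gene for each of 24 pools; the study names edgeR for summarizing gene counts, and the use of strand is not given in the sources used here, so overlapping genes may share reads. Rows that name no gene (unmapped, multimapping, no feature, ambiguous) held 39.1 to 47.5% of a pool's reads and were left out. Of 32520 identifiers 29201 have a symbol in the name table, and 19 members carry one that several genes share; no sequences were used here. List entries were matched by symbol, or else by the symbol without a final a or b, so some listed genes may be paralogues.

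Members were ranked on TMM-scaled CPM. Tests were edgeR 4.0.16 quasi-likelihood F-tests (R 4.3.3, TMMwsp scaling, filterByExpr, 19597 genes, FDR under 0.1 by Benjamini-Hochberg), on the 12 E– pools for age and on all 24 for diet. Errors of log2FC are approximate SE, the absolute log2FC divided by the square root of the F statistic. They were not fitted directly. DESeq2 1.42.0, other scalings and filters, a lane term, a replicate block and left-out pools were the alternatives; scripts were tested on simulated counts. Replicate pools differed beyond counting noise (chi-square per degree of freedom 4.88 to 20.7 over 36 pairs). Of 60 same-numbered pairs across groups 0 had a correlation of deviations over 0.1. The mean correlation was 0.0011 for same-numbered and -0.00039 for differently numbered pairs, so no pairing by number was seen. Whether pools shared spawns is not stated, and these correlations do not settle it.

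The members and lists were chosen with earlier results of these data known. Named genes were the 25 of highest rank, the 10 with the smallest E– peak among those not called in both comparisons, members with a diet call, members on a list, and 3 on each side of the margin; the other genes named, the role groups and the Hox list were chosen after values were seen. The values of 1 member are not reported here.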

Additional observations from a re-analysis of the deposited data

Results flagged for a closer look

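In all, 3 values stood farther from the other 3 pools of their group than Dixon's test at 95% allows, out of 114 groups of 4 pools examined, in which chance alone gives 5.7. E+ 18 hpf pool 2 had 13.2% unmapped reads, against 9.09 to 9.26% in its group. mt-atp8 was at 46.1 CPM in E+ 24 hpf pool 2, against 26.8 to 28.0 CPM. si:dkey-261m9.18 was at 41.4 CPM in E– 12 hpf pool 2, against 0.938 to 2.19 CPM.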

How the results depend on the processing

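Of the members, the number higher at 18 hpf than at 12 hpf, than at 24 hpf and than at both in E– pools stayed within 1.5 times of 79, 68 and 56 under every alternative tried, the list lengths of 50 (44, 39 and 35 members) and 200 (138, 113 and 88) taken as shares. With each E– pool left out in turn these counts were 75 to 82, 59 to 70 and 48 to 60, and with members chosen without each E+ pool 74 to 81, 64 to 68 and 52 to 58 (84 to 97 members shared). The median E– peak of 0.53 was 0.50 to 0.56 with each E– pool left out and 0.51 to 0.55 with members chosen without each E+ pool; it was 0.55 with a ranking pseudocount of 0.1 or with group medians, 0.48 with a pseudocount of 2 or a minimum of 10 CPM, 0.68 for the top 50 and 0.36 for the top 200. Calls between the diets were less stable. The 9 members over the 3 ages became 19 with all genes that had reads tested and 4 at an FDR under 0.05, and were 5 to 12 with each pool left out (5 without E+ 18 hpf pool 2, E– 18 hpf pool 4, E+ 24 hpf pool 2 or E– 24 hpf pool 2). The 3 members at 18 hpf became 7 with all genes tested, and were 0 to 4 with each pool left out (0 without E+ 18 hpf pool 2, 1 without E– 18 hpf pool 2 or 4). The 0 members of the diet by age test became 9 with all genes tested, 4 in DESeq2 and 1 with DESeq2 size factors, and were 0 to 5 with each pool left out (5 without E+ 12 hpf pool 2, 3 without pool 3). The causes were not tested. Shares over all genes under these alternatives are not given here, and the E+ values chose the members, so these diet counts are a description. With a replicate block the counts were 83, 69, 61, 8, 3 and 0, and 4 of the 12 E– pools correlated best with their own number. For 38 of 45 named genes the E– result, peak called or not called, did not change under any of the 20 alternatives. These 38 include genes whose peak was never called, such as nfkbiaa and HOXD11. Leaving out E+ 12 hpf pools 1 and 4 together was chosen after seeing the data. Members with few reads limit the precision.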
